A study of Saccharomyces cerevisiae with 18 samples.

Results

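The 34 genes described here encode the enzymes that make purine and pyrimidine nucleotides in budding yeast, and they were picked by gene name. Of these, 33 were found among the 6334 entries of the deposited table of open reading frames (ORFs), and URA3 was not analysed here. ADE2, which is a marker locus in many laboratory strains, is given apart, so that counts below are over the remaining 32 genes.

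RNA Pol II was located by chromatin immunoprecipitation and sequencing (ChIP-seq) of Rpb3, a Pol II subunit, in Δhog1, Δsko1Δhot1 and wild type cells of the W303 background. Cells had received 0.4 M KCl for 5 min, an osmotic shock, or the same volume of YEPD medium (mock-treated). Hog1, the MAP kinase of the osmotic stress pathway, was located through a 3HA tag in Δsko1Δhot1 and wild type cells, and a mock IP and an input came from wild type cells. Δhog1 carries HIS3 in place of HOG1, and the listed strains with tagged Hog1 carry HIS3 with the tag. Δsko1Δhot1 lacks the transcription factors Sko1 and Hot1, and the strain of this genotype that the study lists carries LEU2 and URA3 at the deleted loci and the tagged Hog1. The study gives the shared background as trp1 leu2 ura3 his3 can1, so the strains also differ in marker genes. URA3 is itself a gene of pyrimidine synthesis. Effects of these markers cannot be told apart from those of the deletions. There was 1 library per condition, so no p-value is given and no difference below was checked against replicate error.

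Purine nucleotides are built on phosphoribosyl pyrophosphate (PRPP) up to inosine monophosphate (IMP), the common precursor of AMP and GMP. The pyrimidine ring is closed before ribose phosphate is attached, which gives UMP and then CTP. Salvage enzymes return free bases to the pools, and growing yeast spends most of these nucleotides on ribosomal RNA. The purine genes of yeast are known targets of the activators Bas1 and Pho2, several pyrimidine genes respond to Ppr1, and IMD2 responds to the guanine nucleotide supply.

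Signals are values per ORF that the authors call RPKM, a read count scaled to ORF length and library total. They are too large for a read count: weighted by ORF length and summed over 5807 ORFs they came to between 67.3 and 114 times the largest sum that a read RPKM allows, depending on the library. They are taken here as covered bases per ORF length and library, which is an inference. They are relative within a library, so a change in the total amount of chromatin-bound polymerase cannot be seen. Folds are log2 of the ratio of 2 signals after adding 989 to each, and a gene is said to have risen or fallen from 2-fold on. Of all ORFs, 6013 remained after those with the lowest input were left out. The deletions were visible in the Rpb3 signal: HOG1 had 1240 in KCl and 667 in YEPD in Δhog1, against 20500 and 18700 in wild type, and HOT1 had 1060 in KCl and 569 in YEPD in Δsko1Δhot1, against 7820 and 6350 in wild type. SKO1 was not analysed here. The Δhog1 Rpb3 libraries spanned a narrower range of signals than those of wild type. Their 99th percentile lay at 8.31 times the median ORF in KCl and 6.49 times in YEPD, against 13.4 and 12.6 times in wild type. In Δsko1Δhot1 it lay at 11.8 times in KCl and 8.04 times in YEPD, so those 2 libraries also differed in range.

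In wild type cells 13 of the 32 genes lost Rpb3 on osmotic shock and none gained it. Across all ORFs 7.70% fell and 4.44% rose. The median fold of the genes was -0.79, against 0.038 for all ORFs tested, and 30 of the 32 had a fold below 0. ORFs with a high mock-treated signal fell more often: among the 1872 with at least 10000, 22.8% fell and 3.90% rose. This class was picked on the YEPD library that is also the reference of the fold, which by itself favours falls. The value added to each signal also damps the folds of low signals. Of the 32 genes 30 were in that class, and the 13 that fell were all among them. The median Rpb3 signal of the 32 genes was 7725 in KCl and 18100 in YEPD, and their share of the signal summed over all ORFs was 0.469% in KCl and 0.923% in YEPD. The count that fell depends on how background is treated: it was 4 with a pseudocount equal to the median input and 22 with input subtracted, where 198 and 962 of the 6013 ORFs fell.

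**Figure D1:**
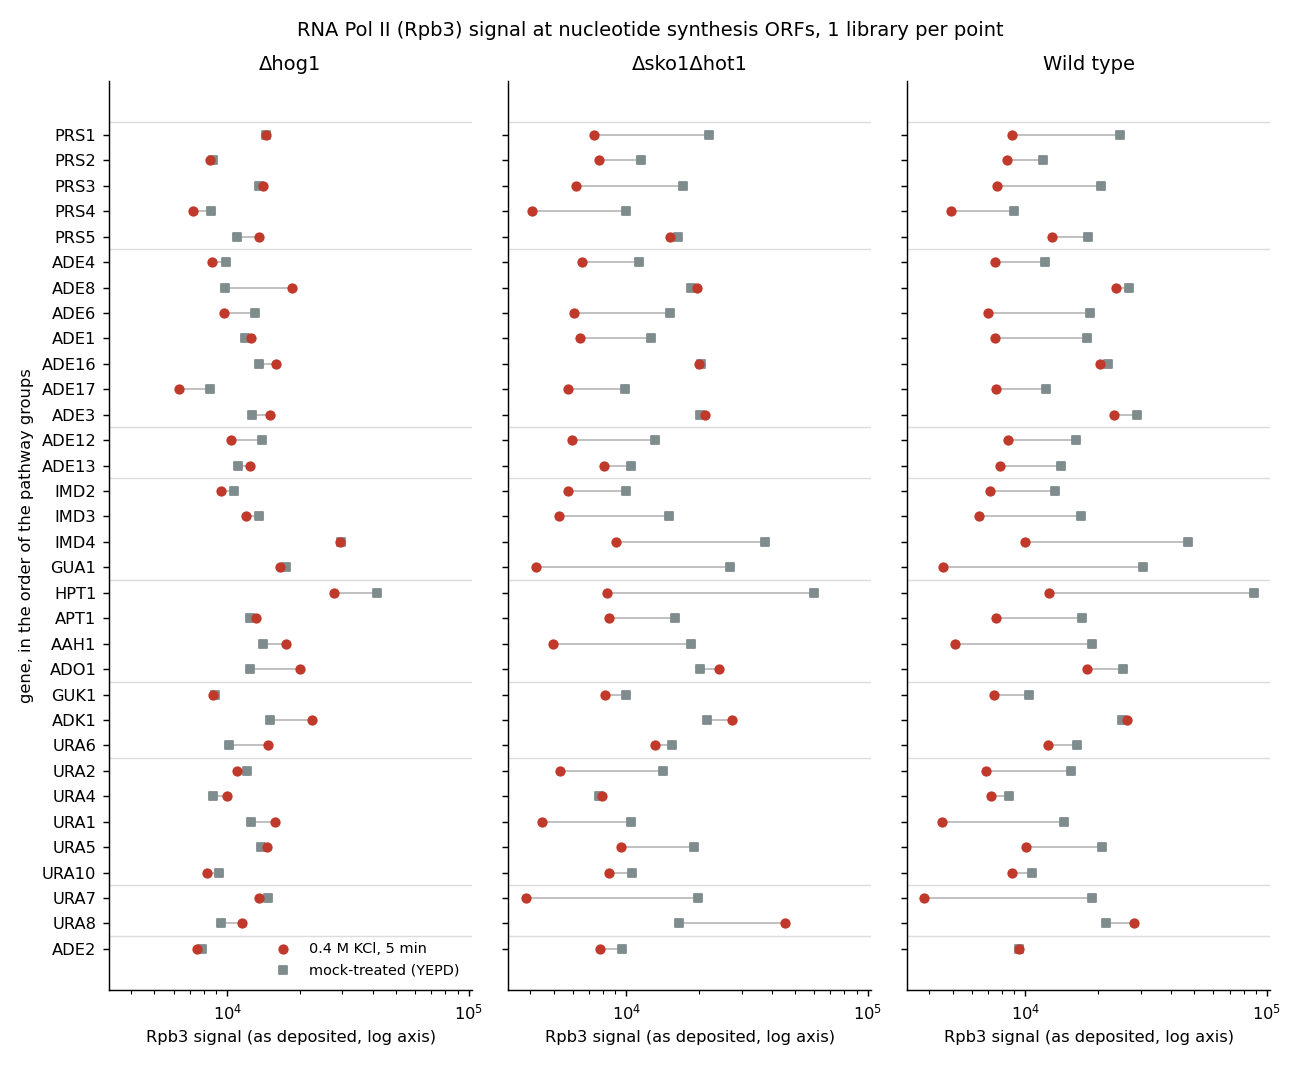
Rpb3 signal (as deposited, log axis) of 33 ORFs in Δhog1, Δsko1Δhot1 and wild type, with circles for 0.4 M KCl, squares for mock-treated cells and 1 library per point; lines between rows part the pathway groups. In Δsko1Δhot1 and wild type most circles lie left of their squares, while in Δhog1 they lie on both sides.

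The enzymes that make PRPP supply purine, pyrimidine, histidine and tryptophan synthesis. Rpb3 at PRS1 was 8800 in KCl and 24600 in YEPD in wild type, a log2 fold of -1.39. At PRS3, the signal was 7600 in KCl and 20600 in YEPD, a fold of -1.33. These members of the family fell, and the other PRS genes stayed under 2-fold. PRS2, with 8380 in KCl and 11800 in YEPD, had a fold of -0.45. PRS4, with 4920 in KCl and 9000 in YEPD, had a fold of -0.76. PRS5, with 12900 in KCl and 18200 in YEPD, had a fold of -0.47. All 5 folds were therefore below 0, and PRS1 and PRS3 had the highest mock-treated signals of the family.

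On the way from PRPP to IMP, 2 of the 7 genes fell in wild type. ADE6, which encodes the enzyme that makes formylglycinamidine ribotide, had a Rpb3 signal of 7030 in KCl and 18500 in YEPD, a fold of -1.28. ADE1, whose enzyme makes the succinocarboxamide intermediate, had 7490 in KCl and 18000 in YEPD, a fold of -1.16. ADE4, which encodes the amidotransferase of the committed step, had a fold of -0.63. ADE8, the glycinamide ribotide transformylase gene, had 23700 in KCl and 26800 in YEPD, a fold of -0.17. ADE3, for a folate enzyme that supplies formyl groups, had 23300 in KCl and 29000 in YEPD, a fold of -0.30. ADE16 and ADE17 encode isozymes of the last steps to IMP, which also use folate. ADE16 had 20300 in KCl and 22000 in YEPD, a fold of -0.11, and ADE17 had 7530 in KCl and 12200 in YEPD, a fold of -0.63. RPL15A, the ribosomal protein gene beside ADE16, had 41300 in KCl and 137000 in YEPD, so the neighbours moved unequally.

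From IMP separate branches lead to AMP and GMP. Neither gene of the AMP branch passed 2-fold in wild type: ADE12, the adenylosuccinate synthase gene, had 8440 in KCl and 16200 in YEPD with a fold of -0.87, and ADE13, the adenylosuccinate lyase gene, had a fold of -0.77. In the GMP branch 3 of 4 genes fell. GUA1, which encodes GMP synthase, had 4540 in KCl and 30600 in YEPD, a fold of -2.51. Among all ORFs it stood at percentile 16.1 in KCl and 94.2 in YEPD. IMD4 had 10000 in KCl and 46900 in YEPD, a fold of -2.12. IMD3 had 6420 in KCl and 17000 in YEPD, a fold of -1.28, and IMD2 had 7120 in KCl and 13200 in YEPD, a fold of -0.81. The IMD genes encode IMP dehydrogenase, which starts the GMP branch, and are close in sequence. Only uniquely placed tags were counted, so their values are uncertain, although the input signals in YEPD of IMD2, IMD3 and IMD4 were 8120, 8490 and 10900. IMD1, with an input of 559, was left out of the fits.

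Salvage genes held the largest fall of the set. HPT1, the hypoxanthine-guanine phosphoribosyltransferase gene, had the highest mock-treated Rpb3 signal of the 32, with 12500 in KCl and 88300 in YEPD, a fold of -2.73. UTP5, the ribosome biogenesis gene next to it, also fell, with 5630 in KCl and 23300 in YEPD and a fold of -1.88. AAH1, the adenine deaminase gene, had 5090 in KCl and 18800 in YEPD, a fold of -1.70. APT1, the adenine phosphoribosyltransferase gene, had 7570 in KCl and 17200 in YEPD, a fold of -1.09. ADO1, which encodes adenosine kinase, stayed under 2-fold with 18000 in KCl and 25400 in YEPD. The nucleoside monophosphate kinases also stayed under 2-fold. ADK1, the adenylate kinase gene, had 26300 in KCl and 25100 in YEPD, and the folds of GUK1 and URA6 were -0.42 and -0.38.

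Among the pyrimidine genes, 2 of the 5 on the way to UMP fell. URA1, the dihydroorotate dehydrogenase gene, had 4530 in KCl and 14400 in YEPD, a fold of -1.48. URA2, which encodes the enzyme of the opening steps of the pathway and is feedback-inhibited by UTP, had 6880 in KCl and 15500 in YEPD, a fold of -1.07. URA4, the dihydroorotase gene, had a fold of -0.23. The isozymes of orotate phosphoribosyltransferase stayed under 2-fold but lay apart. URA5 had 10100 in KCl and 20800 in YEPD, a fold of -0.97, and URA10 had 8790 in KCl and 10600 in YEPD, a fold of -0.24.

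The paralogs for CTP synthase had folds of opposite sign in wild type, but only that of URA7 passed 2-fold. URA7 had 3790 in KCl and 18900 in YEPD in wild type, a fold of -2.06, and its percentile among ORFs was 8.58 in KCl and 88.8 in YEPD. URA8 had 28100 in KCl and 21600 in YEPD, a fold of 0.36, which is under 2-fold but is the highest fold of the 32 genes. In KCl URA8 thus had more Rpb3 signal than any other gene of the set in wild type and URA7 had the least, while in YEPD their signals were close. The mock IP signal of URA8 was also higher in KCl, with 9080 against 6230 in YEPD, a fold of 0.48. The part of this background shift in its Rpb3 fold was not tested.

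In Δhog1 none of the 32 genes rose or fell on osmotic shock. Few ORFs fell at all in this strain, 0.0665% of those tested, and 0.998% rose, so that the count of 0 is near the background. The median fold of the genes was 0.024, against -0.050 for all ORFs. The folds ran from -0.59 for HPT1, with 27600 in KCl and 41900 in YEPD, to 0.86 for ADE8, with 18500 in KCl and 9780 in YEPD. Of the 13 genes that fell in wild type, 7 had a fold below 0 in Δhog1 and 5 a fold above 0, and PRS1 had 14500 in both treatments.

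GUA1 had 16500 in KCl and 17600 in YEPD in Δhog1, a fold of -0.088. IMD4 had 29300 in KCl and 29600 in YEPD, a fold of -0.014. URA7 had 13600 in KCl and 14800 in YEPD, a fold of -0.11. The genes that lost most Rpb3 in wild type thus kept close to their mock-treated level here, HPT1 excepted. AAH1 had 17500 in KCl and 14100 in YEPD, a fold of 0.29. URA1 had 15800 in KCl and 12500 in YEPD, a fold of 0.32. Both genes had folds of opposite sign in Δhog1 and in wild type. APT1 had 13100 in KCl and 12400 in YEPD. At ADE1 the signals were 12500 in KCl and 11800 in YEPD. PRS3 had 14100 in KCl and 13600 in YEPD, and like APT1 and ADE1 it differed little between treatments. ADE6 had 9710 in KCl and 13000 in YEPD, a fold of -0.39. The fold of IMD3 was -0.17, with 12000 in KCl and 13600 in YEPD. URA2 had 11000 in KCl and 12100 in YEPD, a fold of -0.13. ADE6 thus kept the lowest fold of these, and ADE12 matched it at -0.39, with 10400 in KCl and 13900 in YEPD. PRS4 had 7200 in KCl and 8550 in YEPD, a fold of -0.22.

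The CTP synthase paralogs lay closer to each other in KCl in Δhog1 than in wild type, since URA8 had 11500 in KCl and 9410 in YEPD beside the 13600 and 14800 of URA7. URA5 had 14600 in KCl and 13800 in YEPD, and URA10 had 8260 in KCl and 9290 in YEPD. The IMP-forming isozymes stayed apart, with 15900 in KCl and 13500 in YEPD at ADE16. At ADE17 the signals were 6300 in KCl and 8450 in YEPD, the lowest of the set in both treatments in this strain. PRS2 had 8480 in KCl and 8770 in YEPD, and PRS5 had 13600 in KCl and 11000 in YEPD. IMD2 had 9460 in KCl and 10700 in YEPD. The left-out IMD1, a near copy of IMD2, had 3170 in KCl and 4050 in YEPD in Δhog1, against 637 and 614 in wild type. Its signal was also 3260 in KCl and 3400 in YEPD in the wild type mock IP, against 762 and 559 in the input. In the Δsko1Δhot1 Hog1 libraries it was 3090 and 2390. The higher signal at IMD1 was thus not particular to Δhog1 or to Rpb3, and its cause was not tested.

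Set against wild type directly, 6 of the 32 genes were higher in Δhog1 in KCl and 1 was lower, where 5.32% and 4.92% of all ORFs were. Among the 1872 ORFs with a mock-treated wild type signal of at least 10000, a class that holds 30 of the genes, 253 were higher and 119 lower. GUA1 had a fold of 1.66 over wild type, URA1 and URA7 of 1.61, AAH1 of 1.60, IMD4 of 1.46 and HPT1 of 1.08. The lower gene was URA8, with a fold of -1.22 and signals of 11500 in Δhog1 and 28100 in wild type. In YEPD 4 genes were lower in Δhog1 and none higher, where 4.72% of all ORFs were lower and 1.46% higher. These were ADE8 with a fold of -1.37, ADE3 with -1.13, URA8 with -1.12 and HPT1 with -1.06. Among the 1872 ORFs of the class with high signal, 284 were lower and 2 higher, and the median fold was -0.51. That class was picked on the wild type YEPD signal, which is also the reference of this fold. Such a choice by itself favours lower values, so the class is not an independent comparator here. The median fold of the 32 genes over wild type in YEPD was -0.48, but it was 0.044 after quantile normalization, which gives both libraries the same range of signals and left none of the 32 past 2-fold lower. With a pseudocount equal to the median input none was higher or lower in either treatment.

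Ranks within a library do not depend on that range. In Δhog1 the median percentile of the 32 genes among ORFs was 86.0 in KCl and 88.4 in YEPD. In Δsko1Δhot1 it was 53.7 in KCl and 87.1 in YEPD, and in wild type 54.5 in KCl and 88.0 in YEPD. The share of summed Rpb3 signal held by the genes was 0.733% in KCl and 0.755% in YEPD in Δhog1, and 0.486% in KCl and 0.816% in YEPD in Δsko1Δhot1. Single genes changed place in Δhog1 too, and ADE17 stood at percentile 37.9 in KCl and 66.9 in YEPD, while ADE8 stood at 91.8 in KCl and 78.5 in YEPD. The difference between the strains in rank was not tested.

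**Figure D2:**
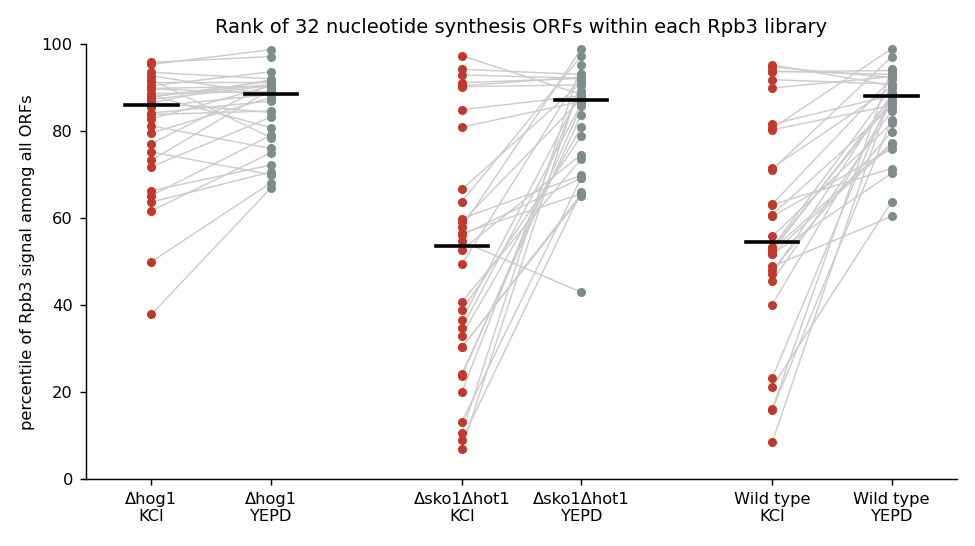
Percentile of the Rpb3 signal of 32 ORFs among the 6013 ORFs tested in each library (0 lowest, 100 highest), with points for genes, grey lines joining a gene's values and black bars for medians. The medians are 86.0 in KCl and 88.4 in YEPD in Δhog1, 53.7 and 87.1 in Δsko1Δhot1, and 54.5 and 88.0 in wild type.

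In Δsko1Δhot1 as many of the genes fell as in wild type. There 13 of the 32 fell and 1 rose, where 7.98% of all ORFs fell and 6.12% rose, and the median fold was -0.77, against -0.13 for all ORFs. Of the genes that fell, 11 also fell in wild type. PRS4, with 4050 in KCl and 10000 in YEPD and a fold of -1.12, and ADE12, with 5930 in KCl and 13200 in YEPD and a fold of -1.04, fell in Δsko1Δhot1 and were under 2-fold in wild type. The reverse held for ADE1, with 6420 in KCl and 12600 in YEPD, and for APT1, with 8440 in KCl and 15900 in YEPD, whose folds of -0.88 and -0.84 in Δsko1Δhot1 were just under the threshold.

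HPT1 had 8300 in KCl and 59700 in YEPD in Δsko1Δhot1, a fold of -2.71. GUA1 had 4230 in KCl and 26900 in YEPD, a fold of -2.42. URA7 had 3840 in KCl and 19800 in YEPD, a fold of -2.11. With IMD4, which had 9070 in KCl and 37500 in YEPD and a fold of -1.94, these were the largest falls in both Δsko1Δhot1 and wild type. AAH1 had 4980 in KCl and 18600 in YEPD, a fold of -1.71. URA1 had 4460 in KCl and 10500 in YEPD, a fold of -1.08. The PRPP synthetase genes that fell in wild type also fell here, PRS1 with 7370 in KCl and 22100 in YEPD. At PRS3 the signals were 6210 in KCl and 17100 in YEPD. IMD3 had 5260 in KCl and 15000 in YEPD, a fold of -1.36. Genes of the opening and middle steps complete the list, ADE6 with 6070 in KCl and 15200 in YEPD. URA2 had 5290 in KCl and 14200 in YEPD, a fold of -1.27.

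Across the 33 genes with ADE2, the folds in Δsko1Δhot1 and in wild type had a Pearson's r of 0.95 and a Spearman's rho of 0.93, against 0.85 and 0.78 across all ORFs. The folds in Δhog1 and in wild type had an r of 0.45 and a rho of 0.37, against 0.033 and -0.019 across all ORFs. These describe genes of shared libraries, which are not independent replicates.

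**Figure D3:**
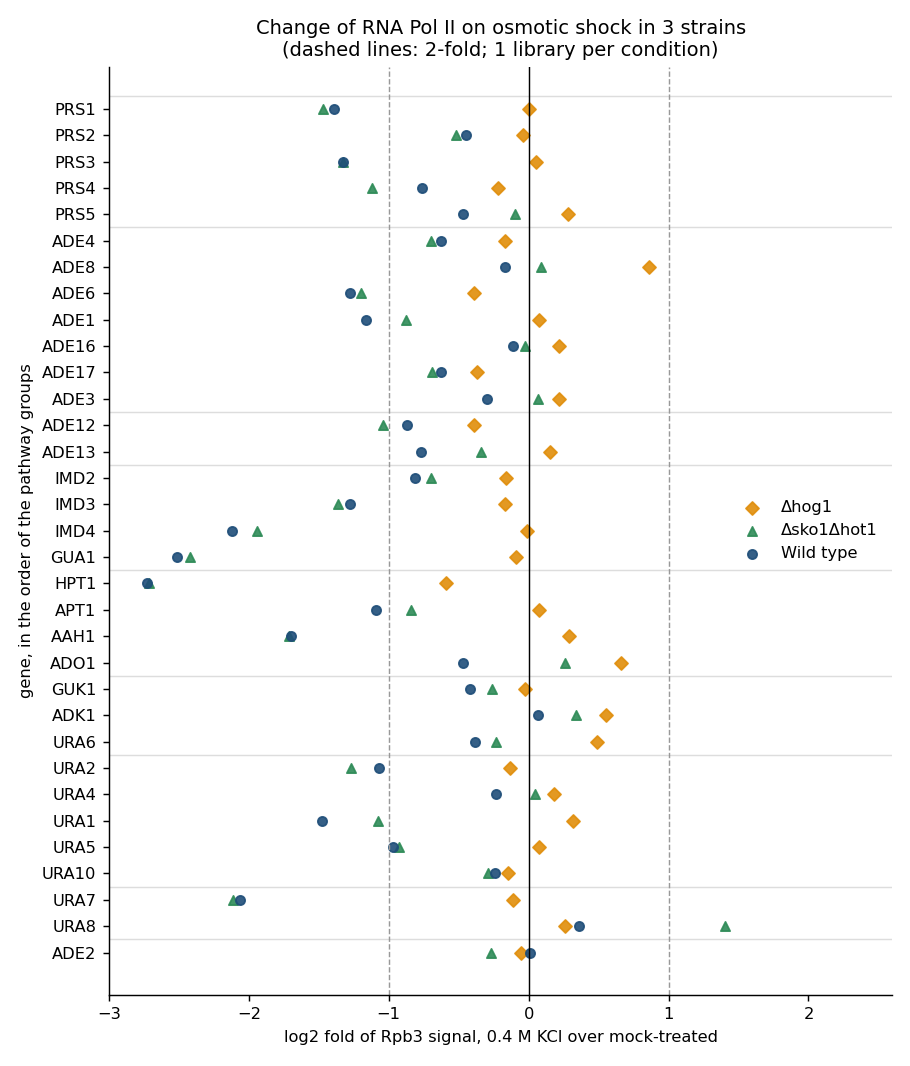
Log2 fold of Rpb3 signal, 0.4 M KCl over mock-treated, for 33 ORFs in Δhog1 (diamonds), Δsko1Δhot1 (triangles) and wild type (circles), with dashed lines at 2-fold and 1 library per condition. Triangles and circles lie close together at most genes, all diamonds lie between the dashed lines, and the URA8 triangle at 1.40 is the single point past 2-fold on the right.

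URA8 was the gene that rose in Δsko1Δhot1, with 45300 in KCl and 16600 in YEPD and a fold of 1.40. Its fold over wild type in KCl was 0.67, which is under 2-fold. SOD1, the superoxide dismutase gene beside it, had 60600 in KCl and 20100 in YEPD in Δsko1Δhot1, a fold of 1.55, and 44500 in KCl and 24300 in YEPD in Δhog1, a fold of 0.85. In wild type SOD1 had 35200 in KCl and 28200 in YEPD, a fold of 0.31. ADO1, on the other side of SOD1, had folds of 0.66 in Δhog1 and 0.26 in Δsko1Δhot1, against -0.47 in wild type. Whether signal at one of these neighbours reaches the next was not tested. Set against wild type, no gene of the 32 was 2-fold higher or lower in Δsko1Δhot1 in either treatment. The share of ORFs that were higher and lower was 1.53% and 1.13% in KCl and 0.299% and 0.399% in YEPD.

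The remaining paralogs stayed under 2-fold in Δsko1Δhot1. ADE16 had 20000 in KCl and 20400 in YEPD, above ADE17 with 5740 in KCl and 9860 in YEPD. URA5 had 9490 in KCl and 19000 in YEPD, above URA10 with 8510 in KCl and 10600 in YEPD. IMD2 had 5740 in KCl and 9950 in YEPD, between IMD3 and IMD4 in KCl and below both in YEPD. PRS2 had 7730 in KCl and 11500 in YEPD, above PRS4 in both treatments, while in KCl it was above PRS1 with 7370, which in wild type had 8800 beside the 8380 of PRS2. PRS5 had 15100 in KCl and 16300 in YEPD.

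ADE2, the marker locus kept apart, encodes the carboxylase whose loss turns yeast colonies red. Its Rpb3 signal was 7530 in KCl and 7860 in YEPD in Δhog1, 7800 in KCl and 9640 in YEPD in Δsko1Δhot1, and 9440 in KCl and 9380 in YEPD in wild type. The folds were -0.055, -0.27 and 0.008 in the same order of strains, so ADE2 did not pass 2-fold in any.

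Most ORFs had less Rpb3 signal than the input of the same treatment, which came from wild type cells. In Δhog1 this was so for 9 of the 32 genes in KCl and 9 in YEPD, where 77.3% and 80.4% of all ORFs were under input. In Δsko1Δhot1 it was so for 24 genes in KCl and 6 in YEPD, where 71.4% and 65.8% of all ORFs were. In wild type it was so for 21 genes in KCl and 3 in YEPD, where 73.4% and 69.1% of all ORFs were. In KCl the genes of Δsko1Δhot1 and wild type were thus under input about as often as ORFs in general. The input signals of the 32 genes themselves lay between 8200 and 13000 in KCl and between 8120 and 13100 in YEPD. The folds of genes under input in KCl rest on a KCl signal below that of the input. How much of that signal is background was not tested.

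Of 36 other genes of nucleotide metabolism tested, none fell or rose in Δhog1, where 0.0665% of all ORFs fell and 0.998% rose. In Δsko1Δhot1 7 fell and none rose, where 7.98% of all ORFs fell and 6.12% rose. In wild type 8 fell, none rose and 28 stayed under 2-fold, where 7.70% of all ORFs fell and 4.44% rose. The median fold of these 36 genes in wild type was -0.38. The largest fall in wild type was at SHM2, a serine hydroxymethyltransferase gene of the folate supply, with 8360 in KCl and 32100 in YEPD and a fold of -1.82. FUR1, the uracil phosphoribosyltransferase gene, had 13300 in KCl and 45100 in YEPD, a fold of -1.69. ADE5,7, whose enzyme works on both sides of the ADE8 step, had 8730 in KCl and 30200 in YEPD, a fold of -1.68. FUR1 thus adds a pyrimidine salvage gene and ADE5,7 a gene of purine ring building to those that fell. FUI1, a uridine permease gene, had a fold of -1.66, RNR1, for the large subunit of ribonucleotide reductase, of -1.54, and FCY2, for a purine-cytosine permease, of -1.35. None of the regulators passed 2-fold: the folds in wild type were -0.74 for BAS1, 0.17 for PHO2 and -0.40 for PPR1.

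None of these ORFs passed the limit for Hog1 enrichment. Enrichment was taken as the Hog1 signal less the mock IP, divided by input, and the limit was the median of all ORFs plus 3 standard deviations over ORFs. In wild type in KCl the genes ran between 0.12 at IMD3 and 0.96 at ADK1, with a median of 0.48, against 0.50 for all ORFs, and the limit was 1.59, which 1.10% of all ORFs passed. In YEPD the median was 0.76, the limit 1.71, passed by 1.18% of all ORFs, and the highest gene was ADE3 at 1.62. ADE3, at 0.678 in KCl, was thus closer to the limit in mock-treated cells. In Δsko1Δhot1 the medians were 0.22 in KCl and 0.40 in YEPD, with limits of 1.87 and 2.03 that 0.266% and 1.61% of all ORFs passed. With so few ORFs over the limit, a count of 0 among 32 is near the background.

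The Hog1 signal of ADK1 was 21900 in KCl and 17800 in YEPD in wild type, and that of IMD3 was 9250 in KCl and 12600 in YEPD. In wild type ADK1 was also 1 of the 2 genes of the 32 with a Rpb3 fold above 0, at 0.065. Its Hog1 fold was 0.28, and its mock IP fold was 0.30. No gene rose or fell in the Hog1 libraries, where 0.748% of all ORFs rose and 0.200% fell in wild type, and 1.30% rose and 0.283% fell in Δsko1Δhot1. The median fold of the Hog1 signal was -0.26 in Δsko1Δhot1 and -0.16 in wild type, against -0.035 and -0.028 for all ORFs. For the 1872 ORFs with a mock-treated wild type Rpb3 signal of at least 10000 it was -0.23 in Δsko1Δhot1 and -0.11 in wild type, close to the values of the genes. In wild type 29 of the 32 folds were below 0, as were 3358 of the 6013 of all ORFs. HPT1, with the largest fall of Rpb3, also had the lowest Hog1 fold, -0.71, with 13400 in KCl and 22500 in YEPD.

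The mock IP, a control precipitation, moved in part with Rpb3. None of the 32 genes passed 2-fold in it, where 1.83% of all ORFs rose and 0.565% fell, and the median fold was 0.035. Across the 33 genes with ADE2 the wild type Rpb3 fold had an r of 0.71 and a rho of 0.69 with the mock IP fold, against 0.40 and 0.21 across all ORFs. With the Hog1 fold these were 0.82 and 0.74, against 0.74 and 0.57. At HPT1 the mock IP had 8330 in KCl and 12500 in YEPD, a fold of -0.53, and at GUA1 7570 in KCl and 10200 in YEPD, a fold of -0.39. At ADE3 it had 10500 in KCl and 5820 in YEPD, a fold of 0.75, and at ADE8 10000 in KCl and 5860 in YEPD, a fold of 0.68. The genes that kept most Rpb3 thus include those with the highest mock IP folds. In the input too none of the 32 passed 2-fold, where 0.0166% of all ORFs rose and 0.0333% fell. The input fold of ADE3 was 0.46, the highest of the set, and the median input fold was 0.036. The part of these background shifts in the Rpb3 folds was not tested.

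**Figure D4:**
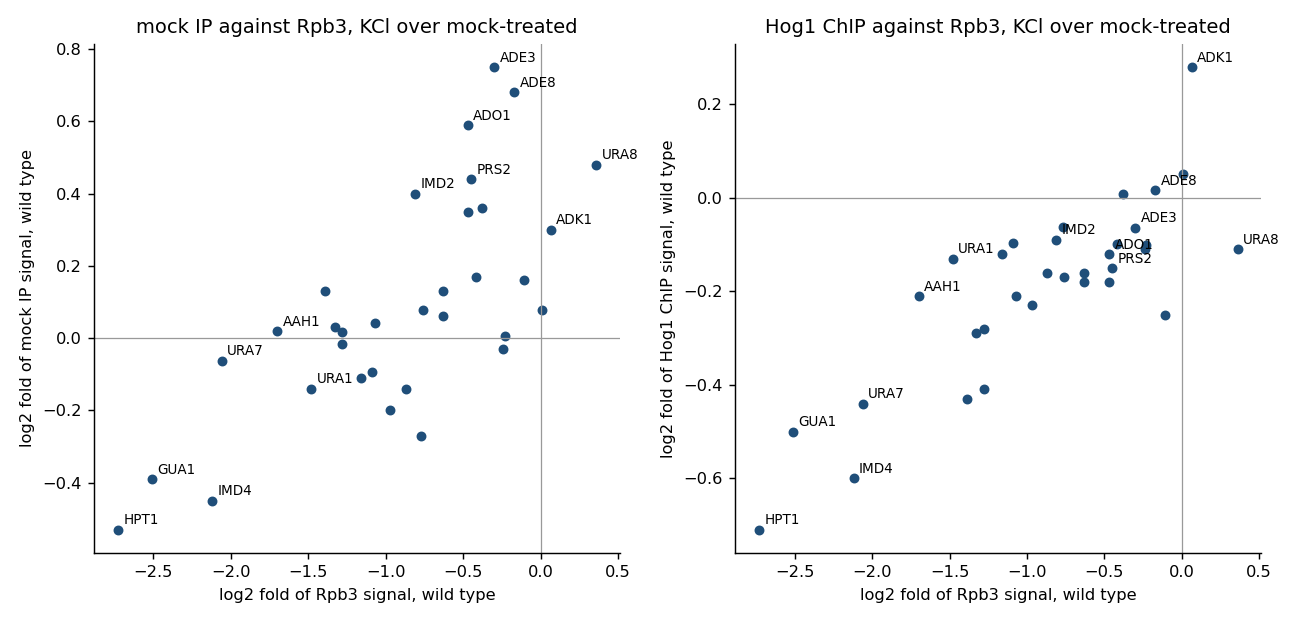
Log2 fold of the mock IP signal (left) and the Hog1 signal (right) against that of Rpb3, each 0.4 M KCl over mock-treated in wild type, for 33 ORFs. HPT1, IMD4 and GUA1 lie at the lower left of both panels, and the vertical axes span a smaller range than the horizontal ones, with mock IP folds between -0.53 and 0.75.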

How the data were processed

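Rpb3, Hog1, mock IP and input ChIP-seq values of 14 libraries were used, 1 per condition. The authors deposited 1 table with a signal per ORF, named RPKM by them and taken here as base coverage scaled to length and library. By the study's methods each culture was divided between shock and mock treatment, so that a fold of KCl over YEPD compares parts of a culture. Per the submitters' processing notes reads were aligned with Bowtie to sacCer2, and per the supplement with ELAND. Versions are not given in the sources used here. The authors kept unique tags and lengthened each to the mean fragment size, using MATLAB, and parts of ORFs overlapping another ORF were left out. The depth of each library is unknown, since no counts were used.

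The 4 entries that share a name and the 5% of ORFs with the lowest mock-treated input were left out, which left 6013. ADE5,7 is listed as ADE5 and was matched by its ORF name. A pseudocount of 989 was 0.1 times the median input, and the folds of low signals are understated by it. Folds, ranks and counts past 2-fold were computed over all ORFs tested with Python 3.11.15, numpy 2.4.6 and pandas 2.3.3, and the scripts were tested on simulated data. With 1 library per condition no test was run. Every member could be named, with signals in all Rpb3 libraries for those past 2-fold on osmotic shock in any strain, for paralogs and for ADE2. Of other pathway genes up to 6 per direction by size were named. Members and lists were chosen with earlier results of these data known. An R64 reference gave names, neighbours and the ORF lengths used to check the scale. The promoter and downstream tables were not used, because their column heads could not be matched with certainty to the libraries, nor were the Sko1 and Hot1 peak lists. There were 9 alternatives tried for each comparison.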

Additional observations from a re-analysis of the deposited data

Results flagged for a closer look

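AAH1 and URA1 fell in wild type and had Rpb3 folds of the opposite sign in Δhog1, where the log2 fold of KCl over YEPD was 0.29 for AAH1 and 0.32 for URA1, against -1.70 and -1.48 in wild type. With 1 library per condition the difference was not tested.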

How the results depend on the processing

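No direction was reversed for a gene that passed 2-fold, and counts not given here stayed within 1.5 times the reported ones. Of the values for single genes, 10 in wild type and 17 in Δsko1Δhot1 dropped under the threshold and 106 and 108 kept their side of it. Percentages in what follows are over all ORFs. With a pseudocount of 1 times the median input, 4 genes fell in Δsko1Δhot1 (3.01%) and 4 in wild type (3.29%), in place of 13 each. Then 0 were lower in Δhog1 than in wild type in YEPD (1.65%), and in KCl 0 were lower (2.46%) and 0 higher (1.61%). With the 20% of ORFs of lowest input left out, 28 of the 32 genes remained, and ADE3 and ADE8 were among those left out. Of these 28 genes, 2 were lower in Δhog1 than in wild type in YEPD (3.32%). With quantile normalization 0 of the 32 genes were lower in that comparison (1.58%). With input subtracted, 3 fell (1.53%) and 4 rose (8.03%) in Δhog1, and 22 fell in wild type, where 962 ORFs did. Δhog1 was then lower than wild type at 20 genes in YEPD (20.7%), and in KCl lower at 2 (12.6%) and higher at 13 (9.41%). Δsko1Δhot1 was lower than wild type at 5 genes in YEPD (2.94%) and higher at 1 in KCl (8.46%), and the Hog1 signal fell at 17 genes in Δsko1Δhot1 (26.6%) and at 11 in wild type (13.3%). At a 1.5-fold threshold 1 fell (1.40%) and 2 rose (4.44%) in Δhog1, and 20 fell in wild type (14.5%). Δhog1 was then lower than wild type at 12 genes in YEPD, as were 843 ORFs, and in KCl lower at 2 (11.2%) and higher at 13 (12.1%), Δsko1Δhot1 was higher than wild type at 1 in KCl (6.09%), and the Hog1 signal fell at 2 in wild type (2.13%). Apart from the genes left out by the input filter, the cause of these shifts was not tested. No paired analysis was possible because there is 1 pair of treatments per strain and antibody, and each fold on osmotic shock is the value of that pair. The depth of the libraries is unknown, so counting error could not be given.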
